A study of Neurospora crassa with 6 samples.

Results

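The genes examined here are 6 Neurospora crassa loci of glycogen and trehalose metabolism, found by locus tag among the 9730 genes of the deposited table. They are gsn (NCU06687, glycogen synthase, listed in RefSeq as gsy-1), gnn (NCU06698, glycogenin), gbn (NCU05429, branching enzyme), gpn (NCU07027, glycogen phosphorylase), gdn (NCU00743, debranching enzyme) and tre-1 (NCU00943, trehalase). Each of the 6 passed the filter on low values, a mean of at least 1 FPKM over the cultures, which left 7797 genes to test. FPKM (fragments divided by transcript length in kilobases and by library size) is a level per length, so levels of different genes may be compared.

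Poly(A)+ RNA was sequenced from 6 liquid cultures of this filamentous fungus. The 3 control cultures were of strain 328-4, with genotype ras-1bd and mating type A. The 3 mutant cultures were of strain 1810, which carries ras-1bd and mating type A as well as prd-2::barR, a resistance marker in the clock gene period-2 (prd-2). Cultures of both strains started from a mycelial disc and grew for 48 h at 25 °C under constant light and shaking, and the Bird medium held 1.8% glucose. The control is thus itself a ras-1bd strain, and no culture is labelled with a clock phase. Each genotype was a single strain, so prd-2 and any other difference between the strains cannot be told apart, and the errors below measure the spread between cultures.

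Glycogen is the branched glucose polymer in which fungi store carbon. Glycogenin primes a new chain by adding glucose to itself, glycogen synthase lengthens it and branching enzyme adds the side branches, while phosphorylase shortens chains to glucose 1-phosphate and debranching enzyme removes the branch stubs that phosphorylase leaves. Trehalose is a disaccharide of glucose that fungi hold as a reserve and as a protectant against heat and drying, and trehalase splits it into glucose. In Neurospora both reserves accompany the growth of hyphae and the formation of conidia, the asexual spores.

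Summed FPKM was between 657467 and 688885 per culture, and Pearson correlations of log2(FPKM + 1) across tested genes were 0.989 to 0.996 within strains and 0.938 to 0.961 between them. NCU01019, known as prd-2, measured 24.7 to 27.3 FPKM in the controls and 6.29 to 7.69 FPKM in the mutants, a log2 difference (mutant minus control) of -1.81 (SE 0.08, limma adjusted p = 1.41e-05). It overlaps NCU01021 in the NC12 annotation.

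Within the glycogen pathway the priming and debranching genes changed in opposite directions by a similar size, and no change passed the test for the synthase, the branching enzyme or the phosphorylase. The transcript of gnn was 1.33-fold higher in the mutant, and that of gdn was 1.33-fold lower. The sparse transcript of tre-1 was 1.27-fold lower, by a call that most other settings did not keep. Of the 6 genes, 3 were called at a limma adjusted p under 0.05 (1 higher and 2 lower), where 47.8% of all tested genes were called (24.0% higher and 23.8% lower). The ranges of the strains were apart for 5 of the 6 genes (2 higher and 3 lower), against 59.8% of all tested genes (30.5% higher and 29.3% lower), so neither count stands out from the transcriptome. The median log2 fold change was -0.09 over the 6 genes and 0.01 over all tested genes.

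**Figure D1:**
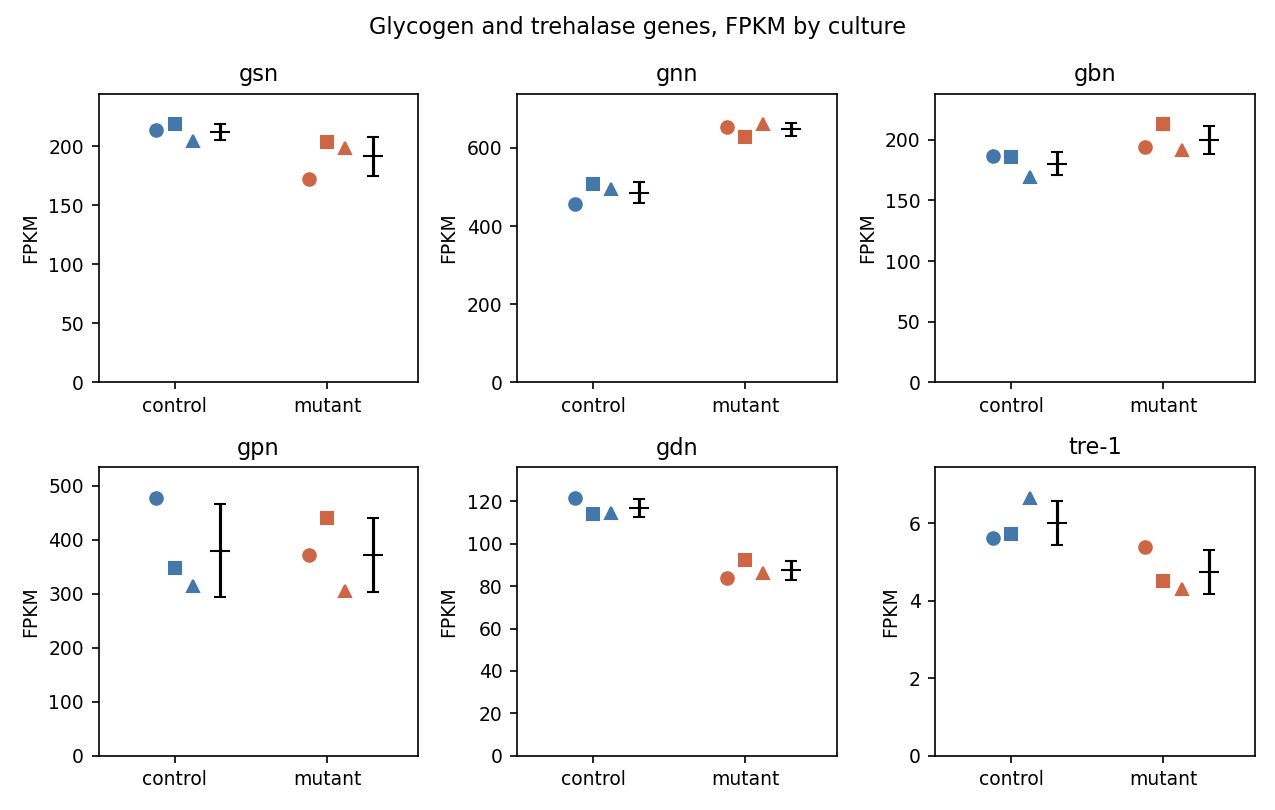
Level in FPKM (vertical axis, from 0) of the 6 genes in each control culture (blue) and mutant culture (orange); circles, squares and triangles are replicates 1, 2 and 3, and the black bar is the mean ± SD of 3 cultures. The mutant points lie above the control points for gnn and gbn, and below them for gsn, gdn and tre-1. For gpn the strains overlap, at 315 to 477 FPKM in the controls and 304 to 440 FPKM in the mutants.

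Among the genes of glycogen synthesis, gnn, the primer gene, measured 456, 506 and 495 FPKM in control replicates 1 to 3 and 654, 628 and 660 FPKM in mutant replicates 1 to 3. Every mutant culture lay above every control culture, and the gap between the nearest cultures exceeded the range within either strain. The mean rose from 486 ± 26.3 to 648 ± 16.8 FPKM (SD, n = 3 each), which is 0.42 log2 units (SE 0.06, 95% interval 0.27 to 0.56, limma adjusted p = 0.00136). Its annotated span overlaps that of NCU06697, a far less abundant transcript that fell from 12.9 ± 0.825 to 8.22 ± 0.452 FPKM (adjusted p = 0.000533 by limma; SD, n = 3 each). The rule by which overlapping fragments were shared out is not given in the sources used here, and the partner's level is a small part of that of gnn.

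The glycogen synthase gene gsn, whose product lengthens the chains, measured 214, 218 and 205 FPKM in the controls and 172, 204 and 198 FPKM in the mutants. The groups did not overlap, but mutant replicate 2 came close to the lowest control. The means were 212 ± 6.94 and 191 ± 16.9 FPKM (SD, n = 3 each), a difference of -0.15 log2 units (SE 0.07, 95% interval -0.33 to 0.02, limma adjusted p = 0.13). This missed the threshold, though quantile normalization brought it past (log2 fold change -0.24, limma adjusted p = 0.0166).

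The branching enzyme gene gbn measured 186, 186 and 169 FPKM in the controls and 194, 213 and 192 FPKM in the mutants. Its mutant values all lay above its control values, again by a narrow gap. The means of 180 ± 9.81 and 199.6 ± 11.5 FPKM (SD, n = 3 each) differed by 0.14 log2 units (SE 0.07, 95% interval -0.01 to 0.30), which did not pass (limma adjusted p = 0.111). The intervals of gsn and gbn allow changes of up to about 0.3 log2 units, gsn downward and gbn upward, and almost none the other way.

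Of the genes of glycogen breakdown, gdn, which encodes the debranching enzyme, measured 122, 114 and 114 FPKM in the controls and 83.8, 92.4 and 86.4 FPKM in the mutants. All mutant cultures lay below all controls, and the gap between the groups exceeded the range within either. The mean fell from 117 ± 4.28 to 87.5 ± 4.41 FPKM (SD, n = 3 each), which is -0.41 log2 units (SE 0.06, 95% interval -0.55 to -0.28, limma adjusted p = 0.00115). No other annotated span overlaps it.

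The phosphorylase gene gpn, whose product releases glucose 1-phosphate, measured 477, 348 and 315 FPKM in the controls and 371, 440 and 304 FPKM in the mutants. The groups overlapped, with mutant replicate 3 just below the lowest control, and the spread within each strain was wide. Its coefficient of variation was 22.6% in the controls and 18.2% in the mutants, where those of gsn, gnn, gbn and gdn were between 2.59% and 8.83%. Its pooled within-strain SD of 0.29 log2 units exceeded that of 94.9% of the tested genes. The estimate was -0.02 log2 units (SE 0.18, 95% interval -0.45 to 0.40, limma adjusted p = 0.924). That interval includes a fall of the size of gdn and ends just short of a rise of the size of gnn. The estimate became 0.15 without control replicate 1 and 0.11 without mutant replicate 3.

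The trehalase gene tre-1 was the least abundant of the 6, at 5.62, 5.73 and 6.66 FPKM in the controls and 5.38, 4.52 and 4.31 FPKM in the mutants. Mutant replicate 1 lay just below the lowest control. The mean fell from 6.00 ± 0.569 to 4.74 ± 0.567 FPKM (SD, n = 3 each), which is -0.29 log2 units (SE 0.10, 95% interval -0.52 to -0.06, limma adjusted p = 0.0464). The call was kept in 4 of 14 alternative settings, with adjusted p-values from 0.0267 to 0.478, and quantile normalization brought the estimate to -0.10. It was lost when any culture except mutant replicate 1 was left out. The span of tre-1 overlaps that of NCU10847, which was more abundant at 28.4 ± 1.47 and 27.9 ± 1.11 FPKM (adjusted p = 0.736 by limma; SD, n = 3 each), so the level of tre-1 is uncertain.

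In the controls the levels ran in the order gnn, gpn, gsn, gbn, gdn and tre-1, and the ranges of neighbours overlapped for 1 pair, gnn and gpn. In the mutants gnn, at 628 to 660 FPKM, lay clear of gpn, at 304 to 440 FPKM. There gbn and gsn stood in the reverse order, with overlapping ranges of 192 to 213 and 172 to 204 FPKM. By control mean, gnn ranked 242, gpn 296, gsn 498, gbn 590, gdn 919 and tre-1 6550 among the 9730 genes, so the glycogen genes were among the more abundant transcripts and tre-1 was not.

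The summed level of the 5 glycogen genes was 1298 to 1455 FPKM in the controls and 1441 to 1577 FPKM in the mutants. These ranges overlapped. The share of gnn in that sum was 31.3% to 38.1% in control and 39.9% to 45.8% in mutant cultures. The share of gdn was 8.31% to 8.82% in control and 5.68% to 6.00% in mutant cultures, and that of gsn was 14.7% to 15.9% in control and 11.7% to 13.8% in mutant cultures. The share of gbn lay between 12.8% and 13.5% in all 6 cultures, and that of gpn overlapped between the strains, at 24.2% to 32.8% and 21.1% to 27.9%. The mixture of glycogen transcripts therefore held more of the primer gene and less of the debranching and synthase genes in every mutant culture. Since the shares make up a whole, the rise of gnn by itself lowers the shares of the other genes. The level of gsn was not called (limma adjusted p = 0.13), so its lower share is not a separate result.

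Ratios taken within a culture do not depend on a scaling factor common to its genes, apart from the pseudocount. A set of 4 ratios was compared with an exact two-sided permutation test, whose smallest possible p with 3 cultures against 3 is 0.1. That lies above the threshold used for the genes, so the test could not call any ratio. The log2 difference of a ratio is the log2 fold change of its first gene minus that of its second. For gdn and gbn those fold changes were -0.41 and 0.14, and for gnn and gsn 0.42 and -0.15. The ratios therefore restate the changes of the single genes and are not separate results. The FPKM ratio of gdn to gbn, the genes that remove and add branches, was 0.652, 0.614 and 0.677 in the controls and 0.431, 0.434 and 0.451 in the mutants. No mutant ratio reached the control range, and the log2 ratio fell by 0.56 (exact permutation p = 0.1, the smallest possible, adjusted p = 0.2 over the 4 ratios). The ratio of gnn to gsn, primer to synthase, was 2.14, 2.32 and 2.42 in the controls and 3.80, 3.09 and 3.33 in the mutants, again without overlap (log2 difference 0.57, exact permutation p = 0.1, adjusted p = 0.2).

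The ratio of gpn to gsn, breakdown to synthesis, was 2.23, 1.59 and 1.54 in the controls and 2.16, 2.16 and 1.53 in the mutants. These values overlapped (log2 difference 0.13, exact permutation p = 1.0, adjusted p = 1.0). High and low cultures occurred in both strains, and the log2 difference rested on single cultures, at 0.30 without control replicate 1, 0.29 without mutant replicate 3 and 0.03 to 0.05 without any of the others.

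**Figure D2:**
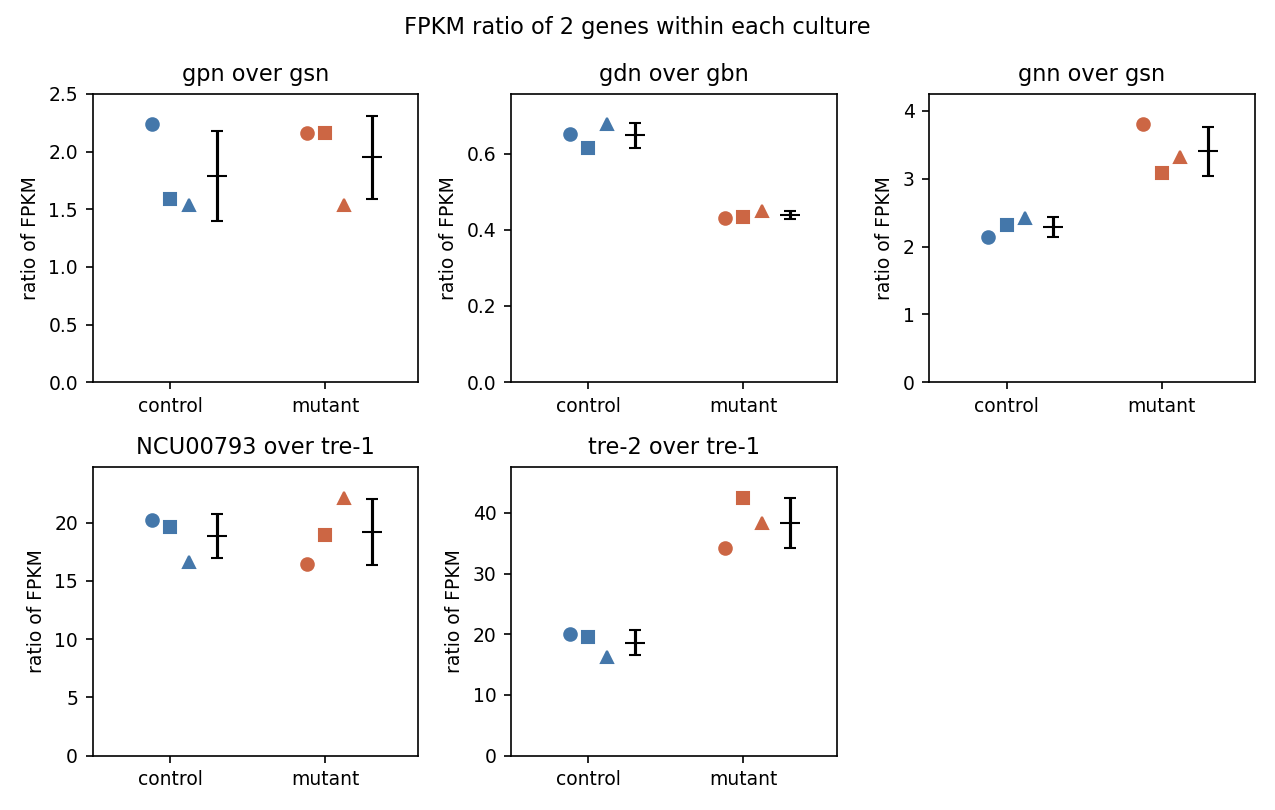
Ratio of the FPKM of 2 genes (vertical axis, from 0) in each control culture (blue) and mutant culture (orange), with circles, squares and triangles for replicates 1, 2 and 3 and the mean ± SD of 3 cultures in black. The strains are apart for gdn over gbn, gnn over gsn and tre-2 over tre-1, and overlap for gpn over gsn and NCU00793 over tre-1.

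The other loci listed for trehalose metabolism were tre-2 (NCU04221), by its symbol the second trehalase gene, the clock-controlled gene ccg-9 (NCU09559), reported to encode a trehalose synthase, and NCU00793, NCU09715 and NCU05041, which have no symbol in the RefSeq table. The last 3 were placed in the list from general knowledge of the pathway, as neither the deposited table nor RefSeq names them. All 5 were called, 3 higher and 2 lower in the mutant, where 47.8% of all tested genes were called (24.0% higher and 23.8% lower), with a median log2 fold change of 0.32 against 0.01 over all tested genes. They did not move in a common direction.

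The gene tre-2 measured 113, 112 and 108 FPKM in the controls and 184, 192 and 165 FPKM in the mutants, far above tre-1 in both strains. Its mean rose from 111 ± 2.75 to 180.2 ± 13.8 FPKM (SD, n = 3 each), which is 0.69 log2 units (SE 0.07, limma adjusted p = 0.000222). The ratio of tre-2 to tre-1, a comparison added after both genes' values were seen, was 20.1, 19.6 and 16.2 in the controls and 34.2, 42.5 and 38.3 in the mutants. The log2 ratio was higher by 0.98 in the mutant, given without a test since the genes were paired for their opposite differences, and subject to the uncertainty of tre-1.

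The gene ccg-9 measured 41.4, 33.6 and 32.1 FPKM in the controls and 14.3, 16.5 and 14.4 FPKM in the mutants, so that no mutant culture came near the lowest control. The change, -1.19 log2 units (SE 0.10, limma adjusted p = 0.000143), was larger in size than that of any of the 6 glycogen and trehalase genes.

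NCU00793 fell from 112 ± 1.46 to 89.8 ± 4.97 FPKM (SD, n = 3 each; log2 fold change -0.32, limma adjusted p = 0.00292). NCU09715 rose from 174 ± 2.67 to 217 ± 1.86 FPKM (SD, n = 3 each; log2 fold change 0.32, limma adjusted p = 0.00133). NCU05041 rose from 101 ± 6.52 to 128 ± 2.75 FPKM (SD, n = 3 each; log2 fold change 0.35, limma adjusted p = 0.00294). The ranges of the strains were apart for each of these loci, as for 59.8% of all tested genes. The ratio of NCU00793 to tre-1 overlapped between strains, at 16.7 to 20.2 in control and 16.5 to 22.1 in mutant cultures (exact permutation p = 0.9, adjusted p = 1.0), both loci being lower in the mutant. The span of NCU05041 overlaps that of NCU17145, which was at or below 0.584 FPKM in every culture.

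**Figure D3:**
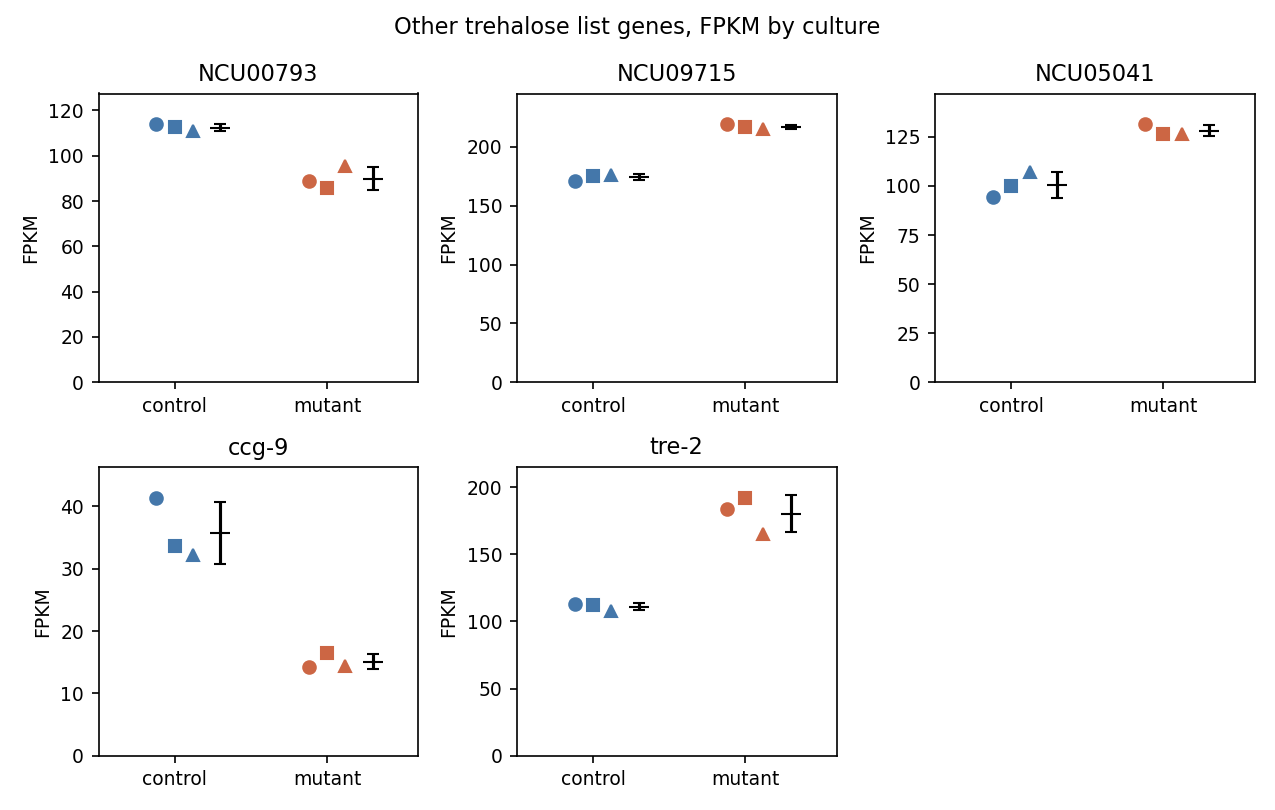
Level in FPKM (vertical axis, from 0) of the other 5 trehalose loci in each control culture (blue) and mutant culture (orange), with circles, squares and triangles for replicates 1, 2 and 3 and the mean ± SD of 3 cultures in black. The strains do not overlap for any of the 5 loci, as for 59.8% of all tested genes, with tre-2, NCU09715 and NCU05041 higher and ccg-9 and NCU00793 lower in the mutant.

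A list of 11 genes for regulators known or proposed to act on glycogen genes, put together from general knowledge and not from the files, was compared in the same fit. Of these, 3 were called higher and 4 lower, and 4 were not called, beside the 47.8% called among all tested genes, and the median log2 fold change was -0.06. Both the carbon catabolite repressor gene cre-1 and the hydrolase regulator gene xlr-1 fell. The level of cre-1 was 174 ± 23.0 FPKM in control and 103 ± 9.28 FPKM in mutant cultures (SD, n = 3 each; log2 fold change -0.75, limma adjusted p = 0.00121), and that of xlr-1 was 4.36 ± 0.533 and 2.10 ± 0.117 FPKM (SD, n = 3 each; log2 fold change -0.79, limma adjusted p = 0.000754). The repressor gene csp-1, which is under clock and light control, rose by 0.30 log2 units (limma adjusted p = 0.00547).

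Of the loci on this list without a symbol, NCU00090 rose by 0.58 log2 units (limma adjusted p = 8.8e-05) and NCU08000 fell by 0.38 log2 units (limma adjusted p = 0.000927). NCU05964 fell by 0.79 log2 units (limma adjusted p = 0.00126), but its span overlaps that of NCU05965, which fell by 2.59 log2 units (limma adjusted p = 1.64e-05), so its value is uncertain. For protein kinase A, which in yeast and Neurospora controls reserve carbohydrates, the catalytic subunit gene pkac-1 rose by 0.19 log2 units (limma adjusted p = 0.0319), a call kept in 7 of 14 alternative settings. The regulatory subunit gene mcb (log2 fold change -0.02, 95% interval -0.15 to 0.10) and the adenylyl cyclase gene cr-1 (-0.06, 95% interval -0.20 to 0.07) were not called, with limma adjusted p-values of 0.737 and 0.405. The value of mcb is uncertain, as its span overlaps that of NCU01167, which had a similar level of 41.0 FPKM in the controls. Nor was the corepressor gene rco-1, at -0.08 log2 units (limma adjusted p = 0.224), or rca-1, at 0.48 log2 units (limma adjusted p = 0.0938), whose mutant values ran from 37.0 to 63.5 FPKM.

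**Figure D4:**
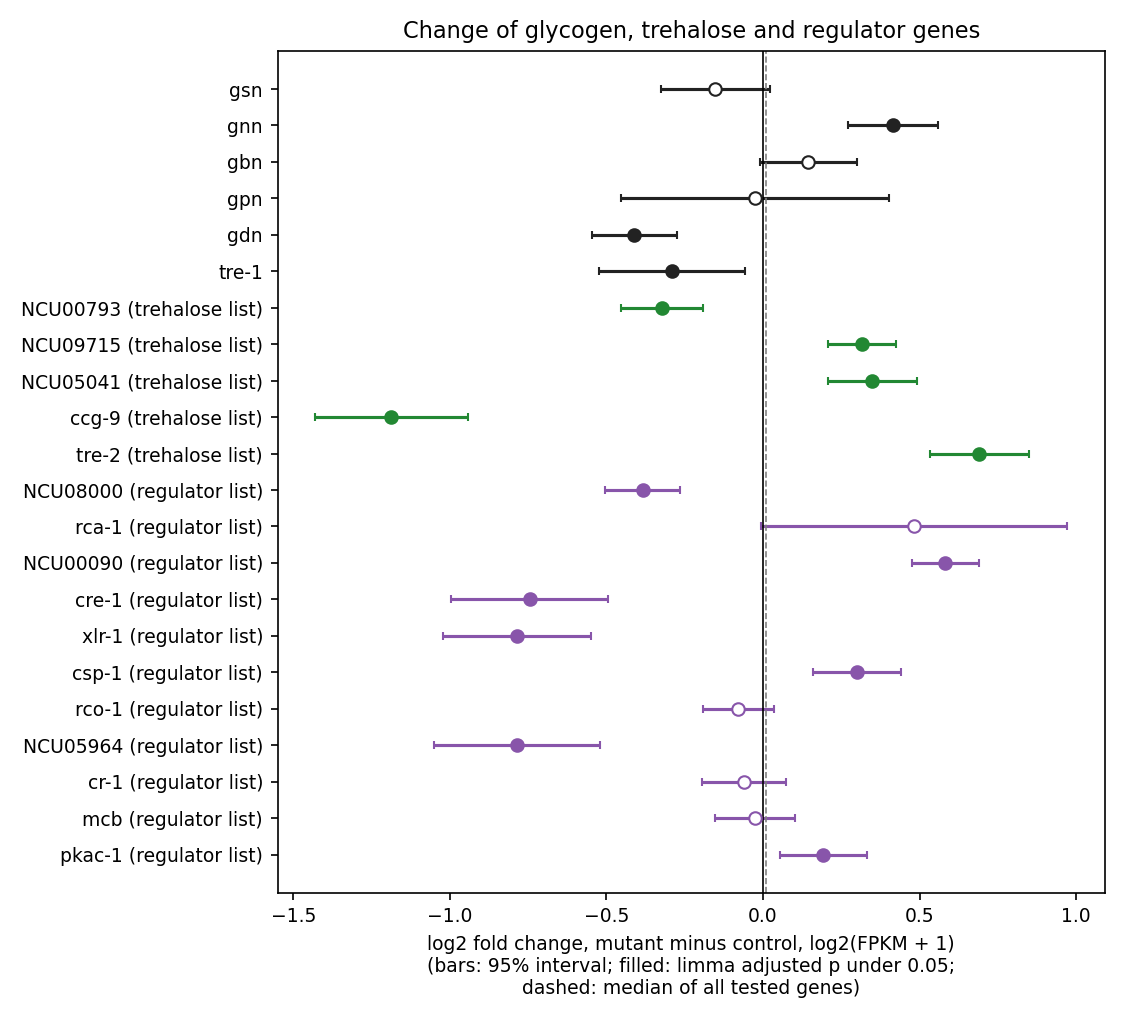
Log2 fold change of mutant against control on the log2(FPKM + 1) scale (horizontal axis) for the 6 glycogen and trehalase genes (black), the 5 other trehalose loci (green) and the 11 regulator loci (purple), with 95% intervals; filled points had a limma adjusted p under 0.05 and the dashed line is the median of all tested genes, 0.01. The glycogen genes lie between -0.41 (gdn) and 0.42 (gnn), inside the range from ccg-9 at -1.19 to tre-2 at 0.69.

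Since glycogen and trehalose levels differ between hyphae and conidiating cultures, 5 conidiation markers were read in the same cultures. They moved with strain in both directions: con-6 was higher in the mutant (log2 fold change 2.51, limma adjusted p = 3.61e-05), con-8 and con-10 were lower (-0.92 and -0.53, limma adjusted p = 0.000127 and 0.0354) and eas and fl were not called. The call of con-10 was kept in 8 of 14 alternative settings. The span of con-6 overlaps that of NCU08768, which was more abundant than con-6 in the controls (71.0 against 19.5 FPKM). In the mutants NCU08768 was the less abundant of them (68.8 against 117 FPKM). NCU08768 was not called (limma adjusted p = 0.523), and the level of con-6 is uncertain. None of the 5 was at 0 in any culture. Their summed level was 1814 to 1992 FPKM in the controls and 1356 to 3192 FPKM in the mutants, the highest value being that of mutant replicate 1, where eas alone measured 2382 FPKM. Without eas the sum was 1150 to 1302 FPKM in the controls and lower in every mutant culture, at 722 to 810 FPKM. Most of that sum was con-8, at 1062 to 1217 FPKM in the controls and 552 to 629 FPKM in the mutants. It therefore follows con-8 and hides the measured rise of con-6. Without mutant replicate 1 the log2 fold change of gnn was 0.41, that of gdn -0.38 and that of tre-1 -0.37, and all 3 remained called. The call of tre-1 was lost when any other culture was left out. Omitting a culture cannot address the part of conidiation, as the ranges of con-6, con-8 and con-10 were apart between the strains. The glucose-repressible gene ccg-1, a marker of glucose shortage, measured 17852 to 18639 FPKM in the controls and 16662 to 17531 FPKM in the mutants (limma adjusted p = 0.318). By mean level it ranked 1 among the 9730 genes in the controls and 2 in the mutants. Its ranges were apart, as for 59.8% of all tested genes. Its level was thus high in both strains, and the glucose left in the cultures was not tested. In bulk cultures, fewer cells of a type and less RNA per cell cannot be told apart, and the part of the conidiation markers in these results was not tested.

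Across the 6 cultures, gnn and gdn had a Pearson correlation of log2(FPKM + 1) of -0.99, the closest relation in size among the 15 pairs of the 6 genes. The gene most like gnn was NCU09415 (r = 0.998), and 703 tested genes (9.02%) had an r of at least 0.95 with gnn. The log2 fold change of NCU09415 was 2.04, against 0.42 for gnn. The gene most like gdn was NCU05153 (r = 0.9997), with 657 genes (8.43%) at an r of at least 0.95. Its log2 fold change was -1.33, against -0.41 for gdn. The other genes had few such companions, from 17 for gpn to 31 for tre-1. They were NCU02637 for gpn (r = 0.997), NCU08841 for gbn (r = 0.995), NCU04207 for tre-1 (r = 0.995) and NCU09646 for gsn (r = 0.988). The profile of gpn, with high values in control replicate 1 and mutant replicate 2, was thus shared by few genes. NCU02637 measured 220, 188 and 181 FPKM in the controls and 194, 210 and 180 FPKM in the mutants. These correlations describe 6 cultures of 2 strains and are given without a test. With 7797 tested genes searched over 6 cultures, a high r of the most similar gene can arise without any relation between the genes. For gnn and gdn, whose strains were well apart, a high r largely restates that separation and not a similar size of change.

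The genes gsn and gnn lie on the same chromosome, V, in NC12, with 8 annotated loci between them. Of the 6 of these that were tested, 1 was called higher and 2 lower, near the 47.8% called among all tested genes, and the median log2 fold change was -0.04. The others are on chromosomes I (gdn and tre-1), II (gbn) and IV (gpn).

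**Figure D5:**
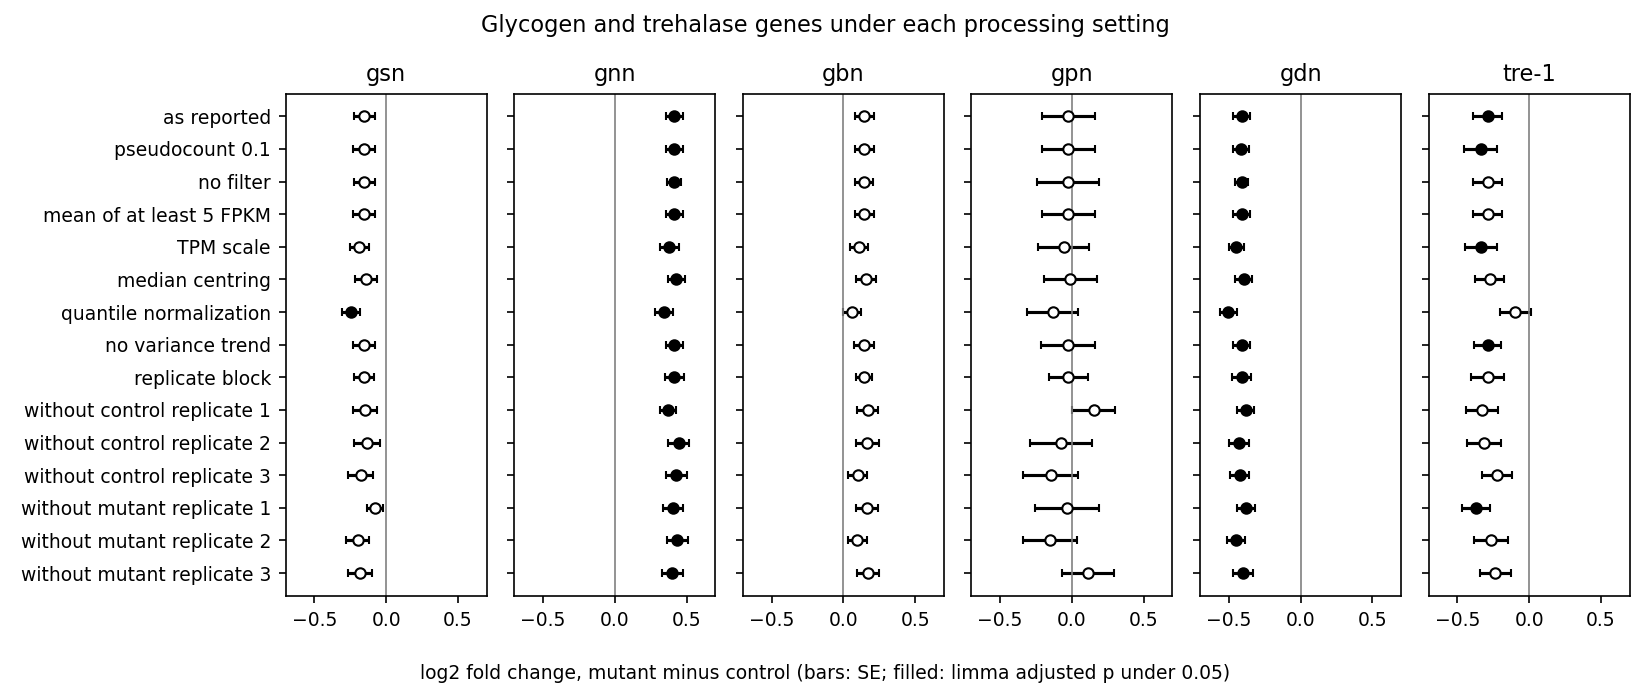
Log2 fold change (horizontal axis) with its SE for each of the 6 glycogen and trehalase genes as reported and under 14 other settings (rows); filled points had a limma adjusted p under 0.05. The points of gnn and gdn are filled in every row, those of gbn and gpn in none, that of gsn with quantile normalization alone, and those of tre-1 as reported and in 4 other rows.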

How the data were processed

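The authors deposited 1 FPKM value per gene and culture for 9730 genes. STAR and Cuffnorm are named in the submitters' processing notes, and per the labels' protocols the mRNA was oligo(dT)-selected, the library kit was directional and reads were 150 bp paired-end. Versions, genome build, annotation, strand setting and scaling between libraries are not given in the sources used here. Each column carries the short name of 1 sample, and no column was left unused. Symbols and neighbouring loci came from the RefSeq table of NC12, where 9729 locus tags were found. Since the build of the values is not named, no coordinates are printed. No sequence is shown.

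Values were transformed as log2(FPKM + 1), which understates changes of low genes, and genes with a mean of at least 1 FPKM were tested. The strains were compared with limma 3.58.1 under R 4.3.3 (eBayes with a variance trend). Its p-values were adjusted by Benjamini-Hochberg across all 7797 of these, and 0.05 was the threshold. Ratios were tested in Python 3.11.15 with scipy 1.17.1. On simulated data with the spreads of all tested genes, 189 of 200 genes changed by 1 log2 unit were called, with 11 unchanged genes. The changes of the glycogen genes and tre-1 were smaller, the largest being 0.42 log2 units (gnn). The simulation therefore does not give the power at those sizes, and cannot say whether changes of gsn, gbn or gpn were missed.

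The genes and lists were chosen with earlier results of these data known. The text names all 6 genes of the rule, each gene of the lists and, for each of the 6, its most similar gene. The lists also held ck-1a (NCU00685) as a check gene, with a log2 fold change of -0.69 (limma adjusted p = 5.17e-05). Lists defined by product names could not be used, as the table used here has none, so the enzymes that supply glucose phosphates were not analysed here.

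Counts of fragments are not given. Among genes under 0.15 FPKM in every culture, ratios to control replicate 1 were divided by 1 factor per culture, chosen to match the most ratios. After that, 83.5% to 95.8% of them fell within 1% of a ratio of small whole numbers. By this fitted factor 1 fragment was worth 0.956 to 1.12 times as much FPKM as in control replicate 1. The matched share is the largest that any factor tried gave, so it is no separate check of the factor. Absolute depth is unknown.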

Additional observations from a re-analysis of the deposited data

How the results depend on the processing

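The alternatives changed the pseudocount (0.1), the filter (none, or a 5 FPKM minimum of the mean), the scaling (TPM scale, quantile normalization or median centring) and the model (the variance trend dropped, or the replicate number as a block), or omitted 1 culture at a time. The calls of gnn and gdn were kept in all 14, with log2 fold changes of 0.34 to 0.45 and -0.50 to -0.38, as were those of all 5 other trehalose loci. For tre-1 the log2 fold change was -0.29 without a filter (adjusted p = 0.0786, more genes tested), -0.29 with a mean of at least 5 FPKM (0.0511), -0.28 with median centring (0.0529) and -0.10 with quantile normalization (0.478). None of these passed, so 1 of the 6 genes was called lower without a filter, with the 5 FPKM minimum, with median centring and with the block, in place of 2. Quantile normalization called gsn (-0.24). For these changes the cause was not tested. The transcriptome-wide median lay from -0.02 to 0.05 log2 units.

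Leaving out each culture gave log2 fold changes from -0.20 to -0.08 for gsn, 0.37 to 0.45 for gnn, 0.10 to 0.17 for gbn, -0.15 to 0.15 for gpn, -0.45 to -0.38 for gdn and -0.37 to -0.22 for tre-1, with 1 to 2 of the 6 genes called lower. The log2 ratio of NCU00793 to tre-1 (-0.03) became 0.014 with a pseudocount of 0.1 and -0.31 with quantile normalization (exact permutation p = 0.2), and ran from -0.128 to 0.056 across these fits. The change of eas (0.52) ran from -0.074, without mutant replicate 1, to 0.88. Of 335 values of the other listed genes under the alternatives, 13 lost a call (pkac-1 and con-10), 2 gained one (rco-1 with quantile normalization, fl without mutant replicate 1) and 1 changed sign (eas). Among all genes, 2889 to 3796 were called over the 14 alternatives.

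With the replicate number as a block, gnn (0.42, adjusted p = 0.00735) and gdn (-0.41, adjusted p = 0.00769) were called and tre-1 was not (-0.29, adjusted p = 0.0945). The labels do not say what a number marks, and across genes, the departures of same-numbered cultures from the mean of their strain correlated at -0.10, -0.17 and 0.07, so the numbers were not taken to pair the cultures. With unknown depth, the precision of tre-1 rests on the spread between cultures alone.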
